A study of Mus musculus with 8 samples.

Results

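A heart holds many cells besides cardiomyocytes, and 33 marker genes of 4 of these cell types are described here: endothelial cells, mural cells, fibroblasts and macrophages. The markers are named by cell type and were chosen with earlier results of these data known. Of these, 32 were among the 13227 genes listed for every library: 11 endothelial, 6 mural, 5 fibroblast and 10 macrophage markers. Tagln, the remaining mural marker, was not analysed here. RNA sequencing was done on 8 hearts of male FVB/N mice, an inbred strain, at 3 months of age. The 4 non-transgenic hearts carry the letters A, B, D and E, and the 4 FASTKD1 transgenic hearts carry the letters A, B, C and E. FASTKD1 is a mitochondrial protein of the FASTK family of RNA-binding proteins, and the series title calls its overexpression cardiac-specific without naming the promoter or the founder line. The comparison asks whether transcripts of the other cells of the heart differ where the transgene is present.

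Endothelial cells line every vessel of the heart, and the capillaries that they form pass fatty acids and oxygen to the muscle. Mural cells wrap those vessels, as pericytes on capillaries and as contractile smooth muscle on arteries. Fibroblasts make and maintain the collagen network, and resident macrophages clear debris and produce complement proteins such as C1q. In RNA from whole hearts the summed level of such markers rests on both the number of cells and the RNA that each cell holds, and fewer cells of a type cannot be told apart from less RNA per cell.

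None of the 32 markers passed the test between the groups. The test was edgeR's quasi-likelihood test with Benjamini-Hochberg adjustment over the 13226 genes tested, at a threshold of 0.05, under which 0 markers rose and 0 fell, against 1.25% of all genes tested. Levels of single hearts are given as CPM, counts scaled to a common library size. At an unadjusted p under 0.05 there was 1 marker, the capillary gene Fabp4, against 10.7% of all genes. DESeq2 called that same gene (adjusted p = 0.0491) and no other marker, against 3.09% of all genes, and limma-voom called 0 markers, against 1.26%. Fabp4 was also the only marker whose CPM did not overlap between the groups, against 7.38% of all genes. The log2 fold changes, given throughout as transgenic over non-transgenic, ran from -0.53 for Fabp4 to 1.02 for the smooth muscle gene Cnn1. They were positive for 10 markers and negative for 22, with a median of -0.07, while the median over all genes tested was 0.01 and 51.2% of them were positive.

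A missed threshold does not show that levels were alike, so the interval of each difference was also read. The 95% interval of the log2 fold change lay within a 2-fold change in either direction for 31 of the 32 markers, and for 92.1% of all genes tested. The exception was Cnn1. A narrower bound of 1.5-fold held the intervals of 20 markers: 7 of 11 endothelial, 1 of 6 mural, 4 of 5 fibroblast and 8 of 10 macrophage markers.

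**Figure D1:**
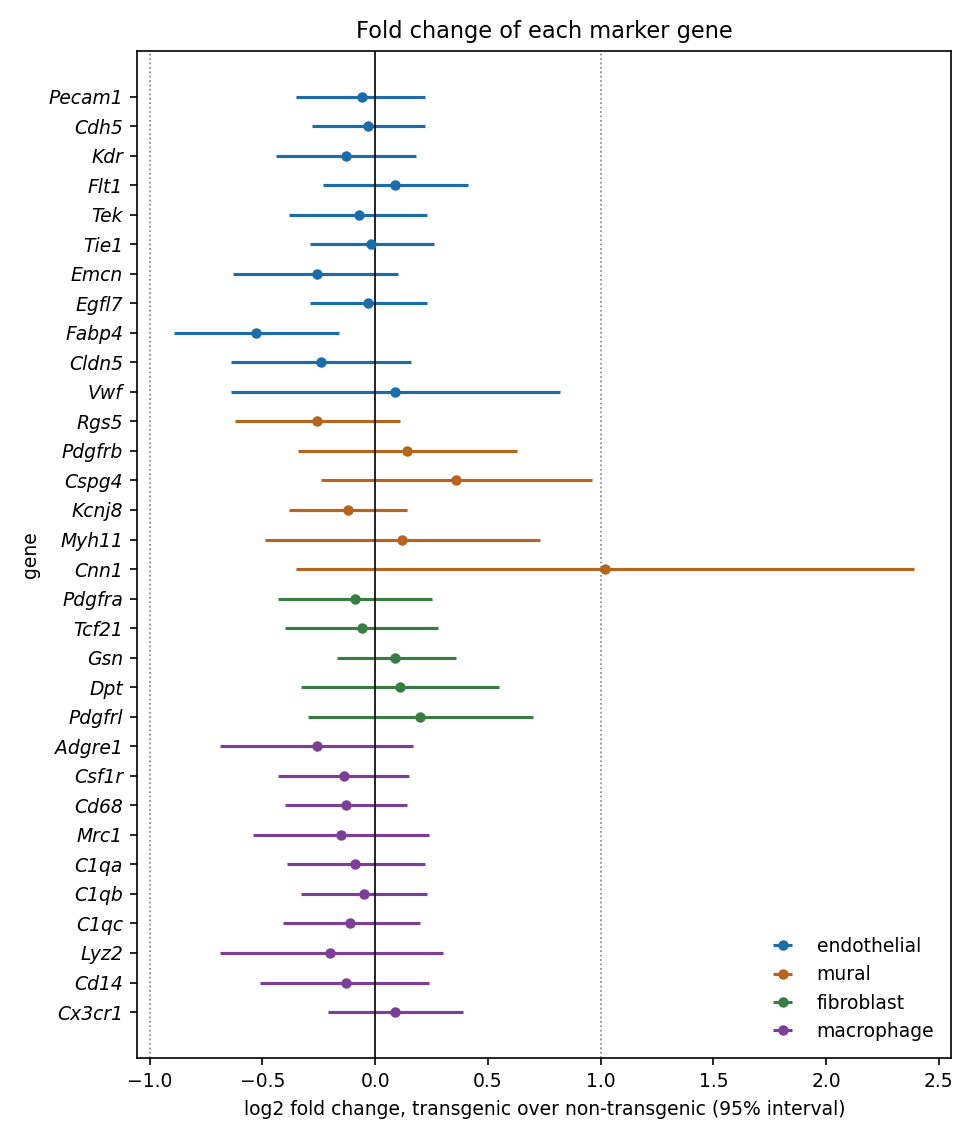
Log2 fold change (x axis, transgenic over non-transgenic) of the 32 measured markers, grouped by cell type, each with its 95% interval from the edgeR fit. Only the interval of Fabp4 lies wholly on one side of 0 (-0.89 to -0.16), and the interval of Cnn1 is the widest (-0.35 to 2.39).

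Hearts of 1 group differed from each other, with a median SD within groups of 0.24 on the log2 scale over the 32 markers and 0.20 over all genes tested. Total counts per library ran from 44584359 to 55769859 and did not differ between the groups beyond their spread (exact permutation p = 0.914, two-sided), and the marker with the fewest reads in any heart still had 35. Fastkd1 itself stood at 8845 to 11516 CPM in the transgenic hearts, at 192 CPM in the library labelled non-transgenic D and at 26.3 to 33.8 CPM in the other 3 non-transgenic hearts (log2 fold change 7.14, SE 0.75, edgeR adjusted p = 0.000684). The library labelled non-transgenic D is labelled male as the others are, but held 0 counts of 4 Y-linked genes (Uty, Kdm5d, Eif2s3y and Ddx3y), against 10372 to 15914 in the other libraries. Transgenic heart A held the highest summed level of 4 atrial genes, at 2988 CPM, followed by the library labelled D at 572 CPM and transgenic heart B at 241 CPM, with the other hearts at 16.2 to 85.9 CPM. Without the library labelled D, 0 markers passed the edgeR test and 2 had an unadjusted p under 0.05. Without both that library and transgenic heart A, 0 passed and 4 had an unadjusted p under 0.05. The part of these differences in the marker levels was not tested.

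The libraries also differed by the base composition and length of the genes that stood high in them. Across 8689 genes with a mean log2 CPM above 3, the deviation of non-transgenic heart B from the mean of all hearts went down with the GC content of the transcript (Spearman's rho -0.57), and that of non-transgenic heart A went up (rho 0.41), with -0.22 to 0.27 in the other hearts. With transcript length rho was -0.38 in non-transgenic A and -0.27 in B, and -0.03 to 0.32 in the others. These values describe genes within 1 library, which are not independent replicates. Over the 32 markers the rho with GC content was 0.13, -0.59, 0.24 and -0.03 in the non-transgenic hearts (letters A, B, D, E) and -0.19, 0.24, 0.31 and 0.47 in the transgenic hearts (letters A, B, C, E), largest in size in non-transgenic heart B and transgenic heart E. After a correction of each library for GC content and length, 0 markers passed the edgeR test, against 2.23% of all genes.

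**Figure D2:**
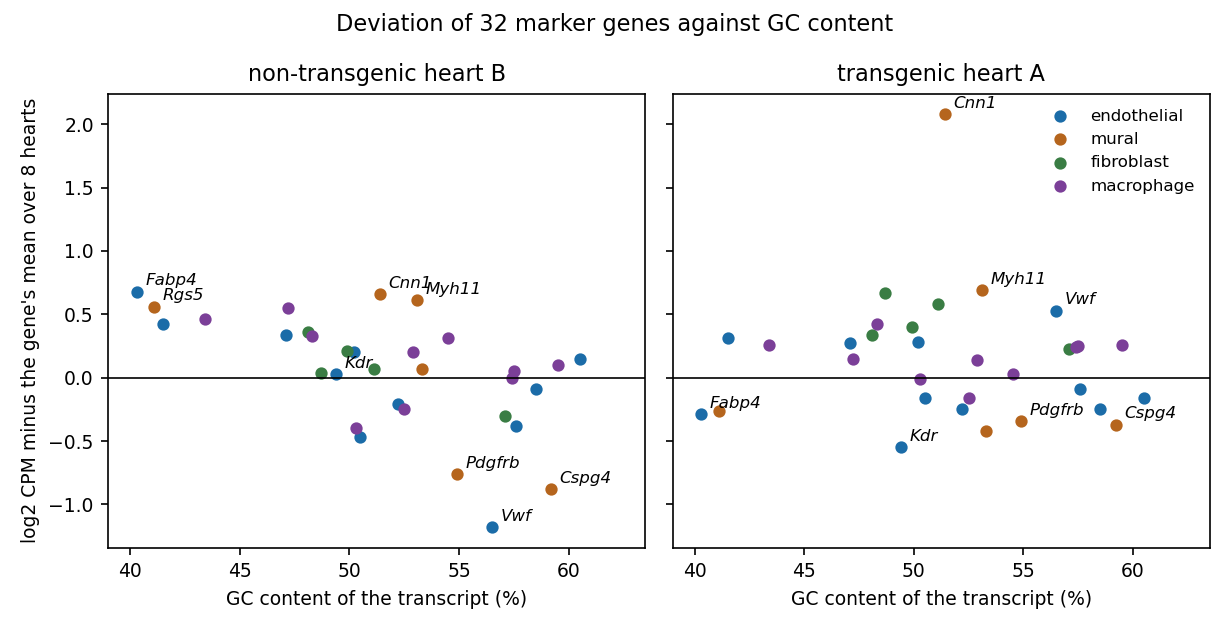
Deviation of each marker from its mean over the 8 hearts (y axis, log2 CPM) against the GC content of its transcript (x axis, percent), for non-transgenic heart B and transgenic heart A, 1 point per marker and coloured by cell type. In non-transgenic heart B, markers of low GC content such as Rgs5 and Fabp4 lie above 0 and markers of high GC content such as Cspg4 lie below it.

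No endothelial marker passed the edgeR test, and the one with the largest difference, Fabp4, had lower values in all 4 transgenic hearts. Of the 11, 0 rose and 0 fell, 2 had positive and 9 negative log2 fold changes, and their median was -0.06. Their summed level was 1405 to 1662 CPM in non-transgenic and 1308 to 1346 CPM in transgenic hearts. These sums did not overlap on the TMM scale. The gap depends on the TMM factors, 0.853 in non-transgenic heart B and 1.06 in transgenic heart C, without which these hearts have nearly equal sums. Fabp4 made up the largest share of each sum. It was also the only one of the 11 markers whose own values did not overlap between the groups. The sums therefore do not show that the other endothelial markers were lower in every transgenic heart. Values of single hearts are given below in the order A, B, D, E for non-transgenic and A, B, C, E for transgenic hearts.

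Fabp4 encodes a fatty acid-binding protein that capillary endothelium of the heart shares with adipocytes. Its gene lies at chromosome 3, 10204088 to 10208576 on the minus strand of GRCm38. Fabp4 stood at 602, 727, 426 and 447 CPM in the non-transgenic hearts and 370.3, 362, 403 and 391.9 CPM in the transgenic hearts. All 4 transgenic hearts lay below the lowest non-transgenic heart, and non-transgenic hearts A and B stood well above D and E (log2 fold change -0.53, SE 0.16, 95% interval -0.89 to -0.16, edgeR adjusted p = 0.239). The difference was -0.36 without non-transgenic heart B, -0.35 after the GC and length correction and -0.20 without both A and B, and over all alternatives run the adjusted p ran from 0.0491 to 0.602. The 5 adipocyte genes Adipoq, Plin1, Cfd, Cidec and Lep summed to 33.1, 5.04, 11.7 and 0.818 CPM in the non-transgenic hearts and 16.4, 6.54, 2.59 and 3.38 CPM in the transgenic hearts. Non-transgenic heart A was highest in this sum, while B, which had the highest Fabp4, was not, and the part of fat in the Fabp4 values was not tested. Per kilobase of its longest coding transcript, Fabp4 had a mean non-transgenic level of 614 CPM, the highest of all 32 markers, ahead of Gsn at 355 and Rgs5 at 143 CPM per kilobase.

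Emcn encodes endomucin, a sialoglycoprotein of capillary and venous endothelium. It stood at 57.3, 70.9, 56.9 and 50.9 CPM in the non-transgenic hearts and 65.7, 48.0, 43.0 and 39.7 CPM in the transgenic hearts. Transgenic heart A lay among the non-transgenic hearts and the other 3 transgenic hearts lay below all of them (log2 fold change -0.26, SE 0.16, 95% interval -0.63 to 0.10, edgeR adjusted p = 0.646). Cldn5 encodes the tight junction protein claudin-5. It stood at 19.3, 14.6, 12.1 and 12.1 CPM in the non-transgenic hearts and 11.8, 10.9, 10.97 and 15.6 CPM in the transgenic hearts, with non-transgenic heart A highest and transgenic heart E above all but that heart (log2 fold change -0.24, SE 0.18, 95% interval -0.64 to 0.16, edgeR adjusted p = 0.722).

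The remaining 8 endothelial markers had log2 fold changes from -0.13 to 0.09. Kdr encodes the VEGF receptor through which endothelial growth and permeability are signalled, and Flt1 a second VEGF receptor that binds the ligand tightly and acts largely as a decoy. Kdr lay at 219 to 236 CPM in 7 hearts and at 146 CPM in transgenic heart A, and its log2 fold change was -0.13 with all hearts and 0.01 without that heart. Flt1 lay at 64.8 to 105 CPM in non-transgenic and 80.5 to 101 CPM in transgenic hearts, with non-transgenic heart B lowest. Tek, the receptor of the angiopoietins, and Tie1, its partner receptor, had log2 fold changes of -0.07 (95% interval -0.38 to 0.23) and -0.02 (95% interval -0.29 to 0.26). The adhesion genes Pecam1 and Cdh5, which hold endothelial cells together, had values of -0.06 (-0.35 to 0.22) and -0.03 (-0.28 to 0.22), and Egfl7, a secreted endothelial factor, -0.03 (-0.29 to 0.23).

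Vwf, the clotting factor stored by endothelium of larger vessels, varied most between hearts of a group among the endothelial markers. It stood at 73.4, 25.5, 80.9 and 58.5 CPM in the non-transgenic hearts and 83.7, 77.7, 45.8 and 46.8 CPM in the transgenic hearts. Non-transgenic heart B held the lowest value and transgenic heart A the highest, and the groups overlapped (log2 fold change 0.09, SE 0.33, 95% interval -0.64 to 0.82, edgeR adjusted p = 0.957). The SD within groups was 0.63 on the log2 scale for Vwf, against a median of 0.23 over the endothelial markers and 0.20 over all genes tested. The account of Kdr and Vwf by heart was chosen after their values were seen.

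A further 24 endothelial genes gave 0 rises and 0 falls by edgeR, with a median log2 fold change of -0.08 and 3 unadjusted p-values under 0.05, which 10.7% of all genes had. Those 3 were Gpihbp1, the anchor of lipoprotein lipase on capillaries, the capillary carbonic anhydrase Car4, and the fatty acid transporter Cd36, which cardiomyocytes express too. Gpihbp1 stood at 63.0, 67.7, 54.9 and 48.8 CPM in the non-transgenic hearts and 33.5, 42.9, 46.4 and 48.4 CPM in the transgenic hearts (log2 fold change -0.45, SE 0.14, edgeR adjusted p = 0.233). The groups did not overlap on the TMM scale, but by library totals alone the hearts lettered E have nearly equal values. Car4 stood at 12.9, 18.2, 10.7 and 10.8 CPM in the non-transgenic hearts and 7.65, 8.02, 9.06 and 10.9 CPM in the transgenic hearts, with non-transgenic hearts A and B highest (log2 fold change -0.56, SE 0.19, edgeR adjusted p = 0.296). Cd36 had a log2 fold change of -0.55 (edgeR adjusted p = 0.397).

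**Figure D3:**
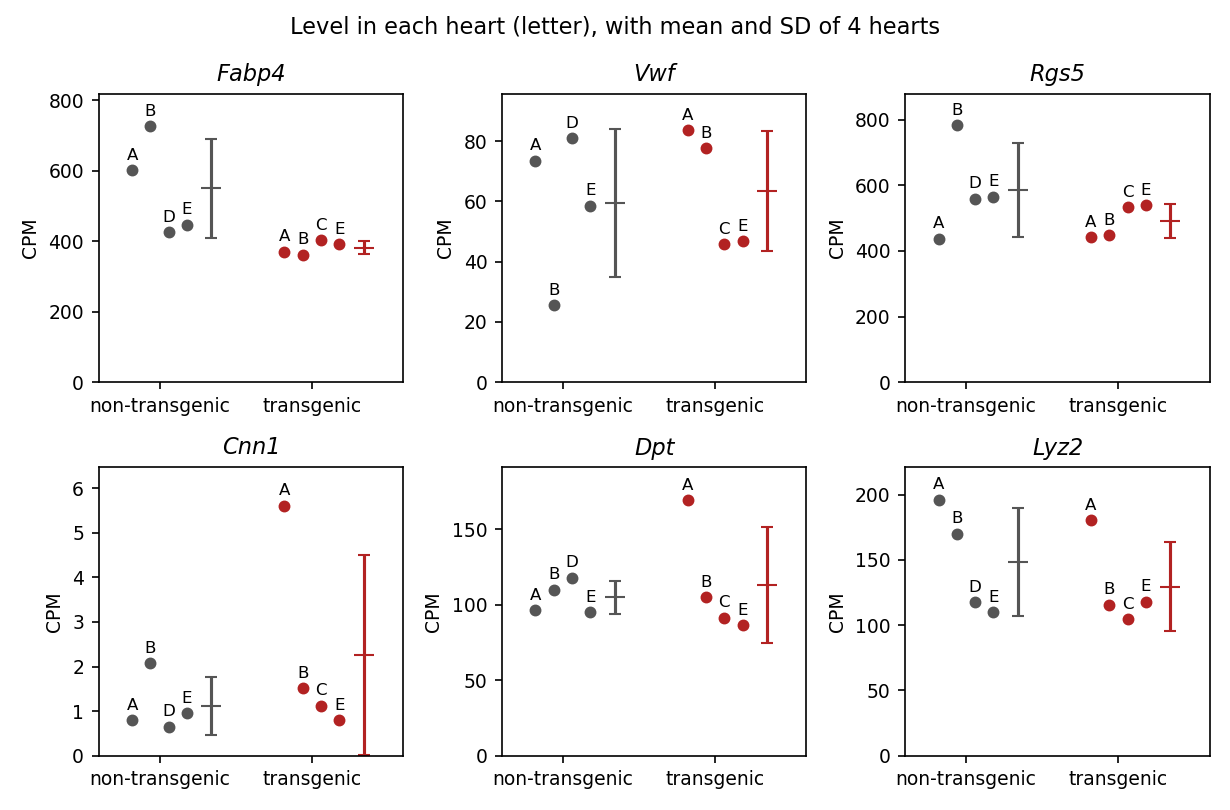
CPM in each heart (points, y axis from 0) of Fabp4, Vwf, Rgs5, Cnn1, Dpt and Lyz2, non-transgenic beside transgenic hearts with the letter of each heart, and the mean with SD of each group (n = 4). The 6 genes were chosen after their values were seen. Fabp4 is the only one of these genes whose points do not overlap between the groups.

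Mural markers varied more between hearts of a group than the other 3 sets, and 0 of 6 rose or fell in the edgeR test. The median SD within groups was 0.43 on the log2 scale, against 0.23 for the endothelial, 0.25 for the fibroblast and 0.21 for the macrophage markers. The further genes of each cell type did not share this order. Their medians were 0.31 for mural, 0.21 for endothelial, 0.32 for fibroblast and 0.31 for macrophage genes. The log2 fold changes were positive for 4 and negative for 2, with a median of 0.13, which became -0.09 without the library labelled D and transgenic heart A and -0.04 without non-transgenic hearts A and B. The summed level was 548 to 897 CPM in non-transgenic and 567 to 673 CPM in transgenic hearts, most of it from Rgs5.

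Rgs5, a regulator of G-protein signalling that marks pericytes, stood at 437, 783, 559 and 565 CPM in the non-transgenic hearts and 443, 448, 533 and 539 CPM in the transgenic hearts. Non-transgenic heart B lay above all other hearts, and non-transgenic heart A lay below all transgenic hearts (log2 fold change -0.26, SE 0.16, 95% interval -0.62 to 0.11, edgeR adjusted p = 0.664). Cspg4, the pericyte proteoglycan NG2, stood at 11.2, 7.32, 18.8 and 12.4 CPM in the non-transgenic hearts and 10.4, 17.1, 18.4 and 17.9 CPM in the transgenic hearts. Transgenic heart A lay among the low non-transgenic hearts and the library labelled D among the high transgenic ones (log2 fold change 0.36, SE 0.27, 95% interval -0.24 to 0.96, edgeR adjusted p = 0.724). Without these 2 libraries the log2 fold change of Cspg4 was 0.79 (edgeR adjusted p = 0.0748). The lowest Cspg4 value came from non-transgenic heart B, and the GC content of its transcript, 59.2%, was the highest among the mural markers.

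Cnn1 encodes calponin, a contractile protein of mature smooth muscle, and was the mural marker with the lowest level, at 0.469 CPM per kilobase of transcript. It stood at 0.793, 2.07, 0.652 and 0.952 CPM in the non-transgenic hearts and 5.61, 1.52, 1.12 and 0.789 CPM in the transgenic hearts. Transgenic heart A held the highest value by far, and the other 3 transgenic hearts lay within the non-transgenic range (log2 fold change 1.02, SE 0.62, 95% interval -0.35 to 2.39, edgeR adjusted p = 0.634). Without transgenic heart A and the library labelled D its log2 fold change was -0.14. Myh11, the myosin heavy chain of smooth muscle, had its highest values in the same heart and in non-transgenic heart B, at 51.3 and 48.4 CPM, and ran from 23.0 to 33.3 CPM in the other 6 (log2 fold change 0.12, SE 0.27, edgeR adjusted p = 0.926). The 2 remaining mural markers were Pdgfrb, the PDGF receptor that recruits pericytes, with a log2 fold change of 0.14 (95% interval -0.34 to 0.63), and Kcnj8, a potassium channel subunit of pericytes. Kcnj8 lay at 28.2 to 30.3 CPM in 7 hearts and at 20.9 CPM in transgenic heart A (log2 fold change -0.12, 95% interval -0.38 to 0.14).

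Among 18 further mural genes 0 passed the edgeR threshold, and 4 had an unadjusted p under 0.05, against 10.7% of all genes. These were Acta2, Myl9 and Lmod1, with positive log2 fold changes, and Synpo2, with a negative one. Other smooth muscle genes of the list did not share a rise, with -0.09 for Smtn, 0.01 for Mylk and 0.06 for Cald1. The list's median log2 fold change was -0.10. Acta2, smooth muscle actin, stood at 108, 173, 134 and 109 CPM in the non-transgenic hearts and 222, 259, 375 and 210.3 CPM in the transgenic hearts. Every transgenic heart lay above every non-transgenic heart, about 2-fold on average (log2 fold change 1.03, SE 0.21, edgeR adjusted p = 0.0505). This adjusted p lay just outside the threshold. It was 0.000128 with DESeq2, 0.0441 with limma-voom and, with edgeR, 0.0458 without transgenic heart A, 0.0273 without non-transgenic heart B and 0.0265 after the GC and length correction. Leaving out any other single heart kept it outside the threshold with edgeR. It was then 0.183, 0.0881 and 0.164 without non-transgenic A, D and E, and 0.171, 0.118 and 0.0597 without transgenic B, C and E. The highest value over all alternatives was 0.183. Synpo2, an actin-binding protein that striated muscle also holds, stood at 190.0, 161, 168 and 187 CPM in the non-transgenic hearts and 149.6, 139.8, 149 and 136 CPM in the transgenic hearts (log2 fold change -0.30, SE 0.09, edgeR adjusted p = 0.213). It was lower in all 4 transgenic hearts on the TMM scale, but not by library totals alone, and it passed with DESeq2 (adjusted p = 0.0172). Lmod1 and Myl9 had positive log2 fold changes of 0.62 and 0.98 with edgeR adjusted p = 0.418 and 0.366. Transgenic heart A was highest for both genes, at 3.52 CPM for Lmod1 and 99.9 CPM for Myl9. Lmod1 lay at 1.66 to 1.94 CPM in the other transgenic hearts and at 1.29 to 1.58 CPM in the non-transgenic hearts. Myl9 lay at 26.6 to 37.7 CPM and 19.5 to 32.3 CPM in the same hearts.

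None of the 5 fibroblast markers passed the edgeR test, and transgenic heart A stood above the rest. The markers gave 0 rises and 0 falls, 3 had positive and 2 negative log2 fold changes, and the median was 0.09, or -0.15 without transgenic heart A. That heart held the highest value of 4 of the 5 markers, and transgenic heart C the lowest value of 3. The mean deviation of the 5 markers from their means over all hearts was 0.44 in transgenic heart A and -0.27 in transgenic heart C on the log2 scale, with -0.13 to 0.09 in the other 6 hearts.

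Pdgfrl encodes a secreted protein related to PDGF receptors and had the lowest level of the fibroblast markers, at 1.75 CPM per kilobase. It stood at 2.31, 2.97, 3.22 and 2.30 CPM in the non-transgenic hearts and 4.25, 3.32, 2.097 and 2.77 CPM in the transgenic hearts (log2 fold change 0.20, SE 0.23, 95% interval -0.30 to 0.70, edgeR adjusted p = 0.832). Transgenic hearts A and C were the highest and the lowest of all 8. Gsn encodes gelsolin, an actin-severing protein that fibroblasts hold in large amounts but other cells of the heart express too, and stood at 971, 783, 1025 and 985 CPM in the non-transgenic hearts and 1134, 1054, 876 and 943 CPM in the transgenic hearts. Its groups overlapped, with transgenic heart A highest and non-transgenic heart B lowest (log2 fold change 0.09, SE 0.12, 95% interval -0.17 to 0.36, edgeR adjusted p = 0.854).

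Pdgfra, the PDGF receptor that defines resident fibroblasts, stood at 47.2, 61.2, 45.7 and 44.4 CPM in the non-transgenic hearts and 60.1, 43.1, 38.0 and 45.2 CPM in the transgenic hearts. Non-transgenic heart B and transgenic heart A were the 2 highest and the other 6 hearts lay between 38.0 and 47.2 CPM (log2 fold change -0.09, SE 0.15, 95% interval -0.43 to 0.25, edgeR adjusted p = 0.894). Dpt encodes dermatopontin, a matrix protein that binds collagen fibrils, and reached 169 CPM in transgenic heart A against 86.6 to 118 CPM in the other 7 hearts. Its log2 fold change was 0.11 with all hearts and -0.15 without that heart. Tcf21, the transcription factor of the fibroblast lineage, reached 13.1 CPM in transgenic heart A against 8.49 to 11.5 CPM elsewhere (log2 fold change -0.06, SE 0.15, edgeR adjusted p = 0.931).

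Of 19 further fibroblast genes 18 were tested, 0 passed by edgeR and 0 had an unadjusted p under 0.05. The list's median log2 fold change was -0.01 and its range was -0.24 to 0.35. Its smallest p-values belonged to Pi16, which marks an adventitial fibroblast state, and Thy1, a surface glycoprotein. Pi16 stood at 31.3, 18.4, 33.5 and 24.7 CPM in the non-transgenic hearts and 45.9, 32.3, 31.4 and 28.1 CPM in the transgenic hearts (log2 fold change 0.35, SE 0.20, edgeR adjusted p = 0.614). Thy1 stood at 11.8, 10.4, 15.7 and 9.55 CPM in the non-transgenic hearts and 11.7, 10.4, 9.25 and 8.81 CPM in the transgenic hearts, and its groups overlapped (log2 fold change -0.24, SE 0.16, edgeR adjusted p = 0.682). In this list too transgenic heart A lay above the mean, by 0.22, but the library labelled D lay higher still, at 0.33, and held the highest value of 9 of the 18 genes. Non-transgenic heart B held the lowest value of 8.

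**Figure D4:**
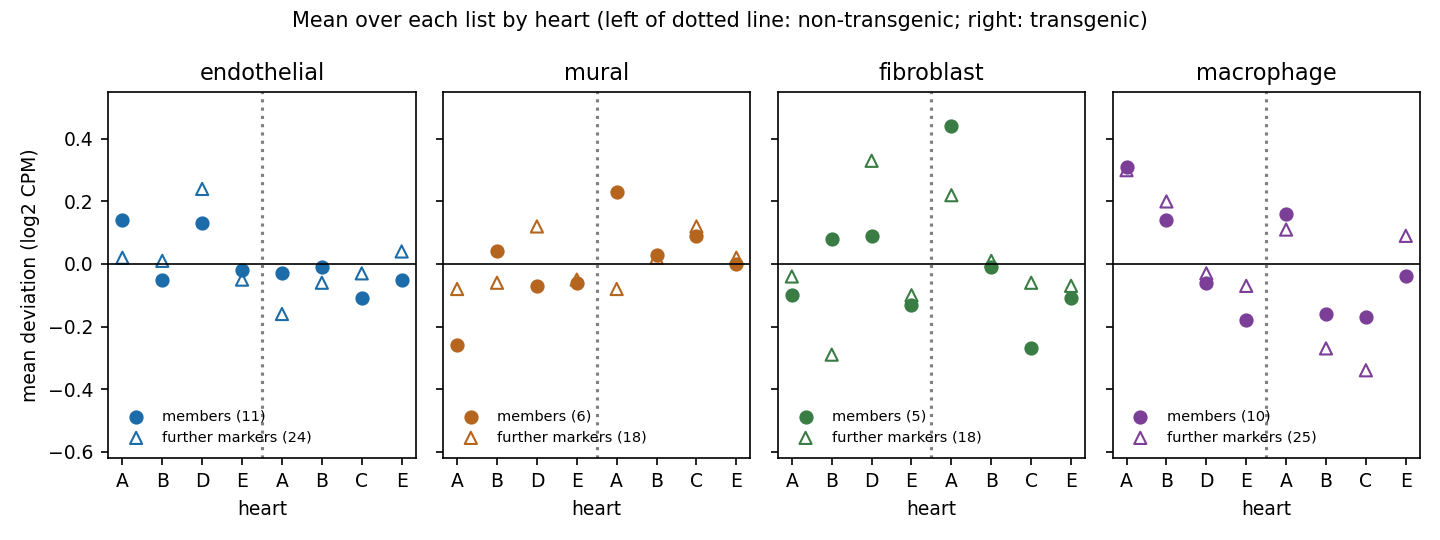
Mean deviation of the markers of each cell type from their means over the 8 hearts (y axis, log2), 1 point per heart with its letter, non-transgenic beside transgenic, for the members and for the further markers of the same cell type. Transgenic heart A stands apart for the fibroblast members (0.44), and non-transgenic heart A is the highest for both macrophage lists (0.31 and 0.30).

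Macrophage markers gave 0 rises and 0 falls among 10 in the edgeR test. Their mean deviation from the mean of all hearts was 0.05 ± 0.21 in non-transgenic and -0.05 ± 0.15 in transgenic hearts on the log2 scale (SD, n = 4 each). A single marker, Cx3cr1, had a positive log2 fold change and 9 had a negative one, with a median of -0.13. Their summed level was 467, 428, 331 and 306 CPM in the non-transgenic hearts and 435, 315, 303 and 334 CPM in the transgenic hearts. Non-transgenic hearts A and B and transgenic heart A were high on the TMM scale and the other 5 hearts were close together. The place of non-transgenic heart B depends on the TMM factors, 0.853 there and 1.11 in the library labelled D. By library totals alone the sums of B and D are nearly equal. Without non-transgenic hearts A and B the median log2 fold change was 0.06, and 8 of the 10 markers had positive values.

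Adgre1 encodes the surface receptor known as F4/80, the classic label of mouse macrophages. It stood at 12.4, 14.3, 9.02 and 7.86 CPM in the non-transgenic hearts and 10.8, 8.34, 7.76 and 9.39 CPM in the transgenic hearts, highest in non-transgenic hearts B and A (log2 fold change -0.26, SE 0.19, 95% interval -0.69 to 0.17, edgeR adjusted p = 0.718). Cd68, a lysosomal glycoprotein of phagocytes, stood at 8.88, 9.22, 8.17 and 7.37 CPM in the non-transgenic hearts and 8.83, 6.58, 7.81 and 7.53 CPM in the transgenic hearts, and its groups overlapped (log2 fold change -0.13, SE 0.12, 95% interval -0.40 to 0.14, edgeR adjusted p = 0.796). Csf1r, the receptor whose signal macrophages need to survive, stood at 49.1, 50.8, 36.5 and 36.4 CPM in the non-transgenic hearts and 41.8, 37.3, 35.9 and 42.1 CPM in the transgenic hearts. Again the 2 highest hearts were non-transgenic B and A (log2 fold change -0.14, SE 0.13, 95% interval -0.43 to 0.15, edgeR adjusted p = 0.796).

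Lyz2, lysozyme, had the highest level per length among the macrophage markers, at 113 CPM per kilobase of transcript. It stood at 196, 170.1, 118 and 110.2 CPM in the non-transgenic hearts and 180.3, 116, 104 and 118 CPM in the transgenic hearts. Non-transgenic hearts A and B and transgenic heart A lay between 170.1 and 196 CPM and the other 5 hearts between 104 and 118 CPM, so that the same division cut across both groups (log2 fold change -0.20, SE 0.22, 95% interval -0.69 to 0.30, edgeR adjusted p = 0.83). Lyz2 has a closely related neighbour, Lyz1, and reads that match both genes cannot be assigned with certainty from counts per gene. Mrc1, the mannose receptor of resident macrophages, divided the hearts in the same way, with 54.5 to 62.9 CPM in those 3 hearts and 38.1 to 42.4 CPM in the rest (log2 fold change -0.15, SE 0.18, edgeR adjusted p = 0.835). Cd14, the co-receptor for bacterial lipopolysaccharide, and Cx3cr1, the fractalkine receptor, did not: Cd14 lay at 4.22 to 7.27 CPM in non-transgenic and 4.49 to 5.14 CPM in transgenic hearts (log2 fold change -0.13) and Cx3cr1 at 6.55 to 9.38 CPM in non-transgenic and 8.42 to 10.5 CPM in transgenic hearts (log2 fold change 0.09). With the GC and length correction, the deviation of Lyz2 in non-transgenic heart B from the mean of all hearts moved from 0.33 to 0.07 (log2). That of Mrc1 in the same heart moved from 0.46 to 0.41. The description of Lyz2 and Mrc1 by heart was chosen after their values were seen.

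C1qa, C1qb and C1qc encode the 3 chains that assemble into complement C1q, and the genes sit side by side on chromosome 4, from 136880129 to 136898803 on the minus strand of GRCm38, a span of 18675 bp. C1qa stood at 49.99, 43.4, 40.0 and 34.9 CPM in the non-transgenic hearts and 48.4, 34.7, 36.3 and 39.03 CPM in the transgenic hearts. The log2 fold changes of C1qa, C1qb and C1qc were -0.09, -0.05 and -0.11 with 95% intervals of -0.39 to 0.22, -0.33 to 0.23 and -0.41 to 0.20. The 3 chains kept close to one ratio in every heart. C1qb over C1qa in CPM was 0.644 to 0.715 over the 8 hearts, C1qc over C1qa was 0.883 to 0.953 and C1qc over C1qb was 1.28 to 1.37. Each ratio varied less than C1qa itself, which ran from 34.7 to 49.99 CPM. Ratios within a pair use counts that differ in gene length, so they describe how steady the pair was and not which chain was more abundant.

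The promoter windows of 4 macrophage genes are shown for the short motifs they hold: C1qb and C1qc, which kept a near-constant ratio, and Lyz2 and Mrc1, which were high in the same 3 hearts. RefSeq's table on GRCm38.p6 gave windows for 21 of the 33 marker genes, each from 250 bases before to 50 after the gene's start, and C1qa was not among them. Motifs were searched on both strands as GAGGAAG, a site type bound by the macrophage factor PU.1, and CAGGAAG, a site of the wider ETS family. Capitals mark the matches, all of which lie on the opposite strand and so read as the reverse complement.
C1qb, chr4:136886151-136886450, minus strand.
C1qb: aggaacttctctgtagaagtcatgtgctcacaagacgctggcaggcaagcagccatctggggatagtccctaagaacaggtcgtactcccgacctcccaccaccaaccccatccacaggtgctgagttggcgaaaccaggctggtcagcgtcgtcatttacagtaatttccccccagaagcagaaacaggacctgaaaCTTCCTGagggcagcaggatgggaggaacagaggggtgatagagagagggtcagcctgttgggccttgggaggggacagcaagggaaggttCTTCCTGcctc
C1qc, chr4:136892865-136893164, minus strand.
C1qc: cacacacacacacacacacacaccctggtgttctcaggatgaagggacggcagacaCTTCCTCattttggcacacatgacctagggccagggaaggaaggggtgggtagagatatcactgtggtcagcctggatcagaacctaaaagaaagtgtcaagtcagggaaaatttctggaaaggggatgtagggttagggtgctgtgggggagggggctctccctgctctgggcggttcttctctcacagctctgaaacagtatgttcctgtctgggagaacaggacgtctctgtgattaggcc
Lyz2, chr10:117282223-117282522, minus strand.
Lyz2: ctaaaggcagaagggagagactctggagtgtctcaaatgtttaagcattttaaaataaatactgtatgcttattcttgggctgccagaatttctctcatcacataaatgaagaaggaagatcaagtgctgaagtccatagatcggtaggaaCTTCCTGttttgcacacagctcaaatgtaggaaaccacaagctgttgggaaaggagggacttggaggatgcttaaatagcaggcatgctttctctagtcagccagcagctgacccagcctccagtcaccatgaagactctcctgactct
Mrc1, chr2:14229164-14229463, plus strand.
Mrc1: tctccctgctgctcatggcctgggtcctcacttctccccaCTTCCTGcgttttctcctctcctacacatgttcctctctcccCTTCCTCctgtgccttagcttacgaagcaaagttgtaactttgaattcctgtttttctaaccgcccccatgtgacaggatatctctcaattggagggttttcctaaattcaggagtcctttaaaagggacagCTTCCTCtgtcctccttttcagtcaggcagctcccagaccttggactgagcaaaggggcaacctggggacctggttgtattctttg

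Counted from the start of the gene, the window of C1qb held CAGGAAG at -52 to -46 and at 40 to 46, and that of Lyz2 at -99 to -93. The C1qc window held GAGGAAG at -194 to -188, and that of Mrc1 held GAGGAAG at -168 to -162 and -36 to -30 and CAGGAAG at -210 to -204. Among the 6 macrophage markers with a window, 2 held GAGGAAG and 3 held CAGGAAG, and the windows shown are those with a match. GAGGAAG was also in 3 of 7 endothelial, 2 of 4 fibroblast and 0 of 4 mural markers. CAGGAAG was in 2, 1 and 0 of the same markers, so neither motif was particular to the macrophage markers. Over all 32851 windows of the table the shares were 13.6% and 13.3%, and over all 21 marker genes with a window the counts were 7 and 6. The CArG box of serum response factor, searched for the smooth muscle genes, was in 1.63% of all windows and in 0 of the 21 marker genes, 4 of them mural. These matches describe letters in a window and say nothing of whether a factor binds there.

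A further 25 macrophage genes gave 0 rises and 0 falls by edgeR, with a median log2 fold change of -0.12 and 21 negative values. Of the 25, 2 had an unadjusted p under 0.05, against 10.7% of all genes. Ptprc, the pan-leukocyte antigen CD45, stood at 11.5, 18.1, 11.8 and 11.99 CPM in the non-transgenic hearts and 8.08, 9.24, 8.93 and 11.1 CPM in the transgenic hearts (log2 fold change -0.51, SE 0.17, edgeR adjusted p = 0.283). On the TMM scale all transgenic hearts lay below all non-transgenic hearts, but by library totals alone the groups overlap. Ccr2, the receptor that marks macrophages derived from blood monocytes, stood at 5.98, 7.53, 3.19 and 4.09 CPM in the non-transgenic hearts and 4.25, 2.86, 2.27 and 3.75 CPM in the transgenic hearts, and its groups overlapped (log2 fold change -0.66, SE 0.28, edgeR adjusted p = 0.439). On average over the 25 genes the non-transgenic hearts deviated by 0.30, 0.20, -0.03 and -0.07 and the transgenic hearts by 0.11, -0.27, -0.34 and 0.09 on the log2 scale. For the members the values were 0.31, 0.14, -0.06 and -0.18 and then 0.16, -0.16, -0.17 and -0.04. In both lists non-transgenic hearts A and B and transgenic heart A were the 3 highest on the TMM scale, where the place of B depends on its TMM factor. After the GC and length correction the members' values were 0.22 in non-transgenic heart A, 0.14 in B and 0.15 in transgenic heart A, still the highest. For the further genes the corrected values in these hearts were 0.24, 0.14 and 0.09. Transgenic heart E, at 0.13, then lay above transgenic heart A in that list.

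**Figure D5:**
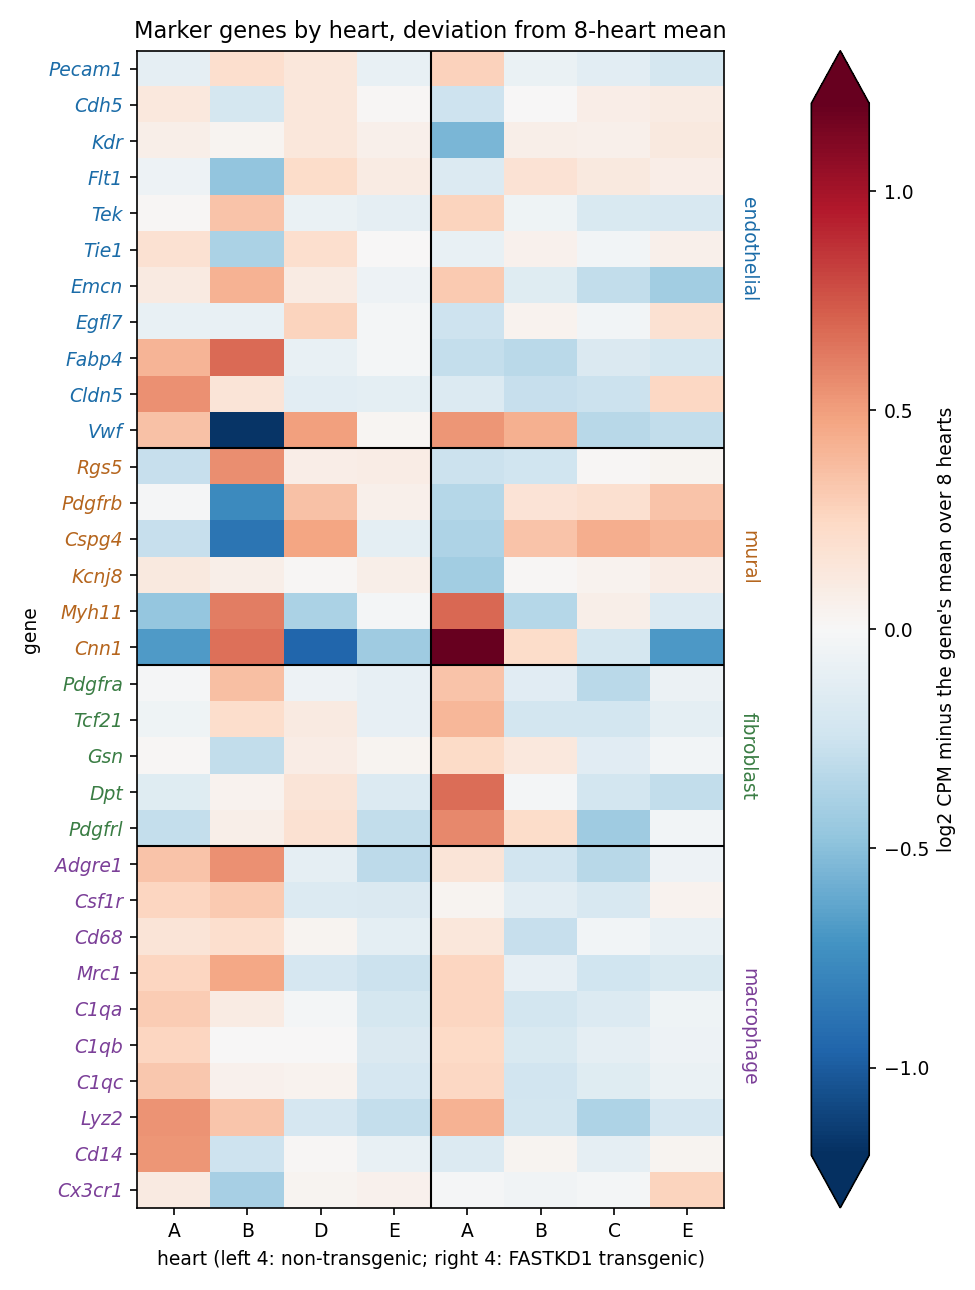
Deviation of each measured marker (rows, grouped by cell type) from its mean over the 8 hearts (columns), as log2 CPM on the colour scale. Non-transgenic heart A is raised over all 10 macrophage markers, and transgenic heart A over all 5 fibroblast markers and over Cnn1 and Myh11.

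The spread of the markers by heart was uneven. Non-transgenic heart B held the highest value of 9 of the 32 markers and the lowest value of 8 others, and transgenic heart A the highest of 8 and the lowest of 4. Non-transgenic hearts A and D were each highest for 7. Non-transgenic heart E and transgenic hearts B and C were highest for 0, and transgenic heart E was highest for 1, Cx3cr1.

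The ligands of the receptors among the markers were read from 12 genes, of which 0 passed the edgeR test. An unadjusted p under 0.05 was found for 2 of the 12, against 10.7% of all genes. Their median log2 fold change was -0.12, with 10 negative and 2 positive values. Angpt1 encodes the angiopoietin that activates Tek. It stood at 47.7, 75.0, 44.9 and 45.8 CPM in the non-transgenic hearts and 50.4, 15.8, 20.6 and 22.1 CPM in the transgenic hearts. Transgenic hearts B, C and E lay below all non-transgenic hearts and transgenic heart A lay among them (log2 fold change -0.97, SE 0.34, 95% interval -1.72 to -0.22, edgeR adjusted p = 0.317). Without transgenic heart A the log2 fold change was -1.45 and Angpt1 passed (edgeR adjusted p = 0.00691), and without that heart and the library labelled D it was -1.53 (adjusted p = 0.00752). Angpt1 passed in no other alternative, and over all alternatives run the adjusted p ran from 0.00691 to 0.695. Angpt2, which opposes Angpt1 at the same receptor in many settings, lay at 4.72 to 9.01 CPM in non-transgenic and 4.99 to 6.36 CPM in transgenic hearts (log2 fold change -0.17, 95% interval -0.61 to 0.28).

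Pdgfd, a PDGF that signals through Pdgfrb, stood at 20.9, 31.6, 15.5 and 15.5 CPM in the non-transgenic hearts and 16.3, 12.6, 13.4 and 13.7 CPM in the transgenic hearts. Non-transgenic heart B was the highest of all 8, and transgenic hearts B, C and E were lower than every non-transgenic heart (log2 fold change -0.57, SE 0.22, edgeR adjusted p = 0.368). The PDGF ligands Pdgfa, Pdgfb and Pdgfc had log2 fold changes of 0.01, -0.01 and -0.15 with 95% intervals of -0.25 to 0.26, -0.39 to 0.36 and -1.01 to 0.72. Vegfa, the main ligand of Kdr, was 120 to 275 CPM in non-transgenic and 116 to 236 CPM in transgenic hearts (log2 fold change -0.09, 95% interval -0.76 to 0.57). Vegfb and Pgf, which bind Flt1, had values of -0.09 (-0.42 to 0.23) and -0.06 (-0.43 to 0.31).

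For the macrophage receptors, Csf1 and Il34, the ligands of Csf1r, had log2 fold changes of 0.19 (95% interval -0.17 to 0.55) and -0.16 (-0.60 to 0.28). Cx3cl1, the ligand of Cx3cr1, had a value of -0.27 (-0.73 to 0.20). None of the receptors Kdr, Flt1, Tek, Pdgfrb, Pdgfra, Csf1r or Cx3cr1 passed the edgeR test, with log2 fold changes from -0.14 to 0.14.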

How the data were processed

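The authors deposited raw counts per Ensembl gene, whole numbers in 1 file per heart. The submitters' processing notes name cutadapt 1.15, TopHat2 and the builds GRCm38 and mm10, names for the same assembly. The counter, the annotation release and whether reads were counted by strand are not given in the sources used here, so reads of overlapping genes cannot be told apart. Exons of 4 of the 32 markers overlap another gene (Egfl7, Pdgfra, Csf1r and Cx3cr1), by at most 15.1% of their length (Csf1r). Symbols and positions come from GENCODE M21. The files hold no gene below 1.003 CPM in its second-highest library, where CPM is by library totals alone. The markers and all gene lists were chosen with earlier results of these data known.

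The test was edgeR 4.0.16's quasi-likelihood test under R 4.3.3 (genes kept by filterByExpr, TMM scaling, two-sided), adjusted over all 13226 genes tested at a threshold of 0.05. Log2 CPM of single hearts uses a prior count of 2. Each SE was worked back from the F statistic, and 95% intervals rest on it. Alternatives used DESeq2 1.42.0, limma 3.58.1, other scalings and filters, left-out libraries, a block on title letters and, added after the data were seen, the GC and length correction (loess, span 0.5) and the omission of non-transgenic hearts A and B. Nothing in the labels says that letters pair animals or that each library is a separate animal beyond its own title, so p-values measure the spread between these libraries. Libraries of a group differed well beyond sampling noise (chi-square per degree of freedom at least 19.7). On simulated counts for the same comparison (13226 genes), edgeR found 48% of genes given a 1.5-fold change, 94% at 2-fold and 100% at 4-fold (50 genes each).

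Named with values in every heart are, by a rule, the 3 markers of each cell type and the 2 genes of each further list of these types with the smallest p; all ligands are named, and other genes (such as Cd36, Lmod1, Myl9, Kdr, Vwf, Myh11, Dpt, Lyz2, Mrc1 and C1qa) were chosen after their values were seen.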

Additional observations from a re-analysis of the deposited data

Results flagged for a closer look

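Of the 64 groups of 4 hearts checked (32 markers in 2 groups), 8 held a heart whose gap to the next one took up more of the whole range than Dixon's 95% critical value allows. Chance flags about 1 in 20 such groups. In the transgenic group 6 were flagged. Transgenic heart A accounted for 5 of these. It had the lowest Kdr (146 CPM), Cspg4 (10.4 CPM) and Kcnj8 (20.9 CPM) and the highest Cnn1 (5.61 CPM) and Tcf21 (13.1 CPM). Transgenic heart E had the highest Cx3cr1 (10.5 CPM). In the non-transgenic group the library labelled D had the highest Egfl7 (54.4 CPM) and heart B the highest Pdgfra (61.2 CPM). The cause of these values was not tested.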

How the results depend on the processing

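The count of markers past the threshold was 0 risen and 0 fallen under every alternative run with edgeR or limma-voom, including thresholds of 0.01 and 0.1, and 1 fallen (Fabp4) with DESeq2. Of the 32 markers, 7 kept the sign of their log2 fold change in every alternative: Emcn, Fabp4, Rgs5, Cspg4, Kcnj8, Pdgfrl and Cd68. Leaving out each heart in turn gave medians of -0.13 to -0.04 for the endothelial, 0.02 to 0.17 for the mural, -0.15 to 0.14 for the fibroblast and -0.20 to -0.02 for the macrophage markers, where -0.15 is the fibroblast value without transgenic heart A. Without both the library labelled D and transgenic heart A the endothelial median was 0.03 and the mural median -0.09. Without both non-transgenic hearts A and B the mural median was -0.04 and the macrophage median 0.06. The cause of these moves was not tested. No marker had fewer than 35 reads in a heart.

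With library totals in place of TMM, which moved the median of all genes to 0.08, the log2 fold change turned to 0.00 for Pecam1, 0.03 for Cdh5, 0.01 for Tek, 0.04 for Tie1, 0.03 for Egfl7, 0.01 for Tcf21, 0.03 for C1qb and 0.06 for Pdgfb. With upper quartile scaling the log2 fold change turned to 0.00 for Pdgfa. With a filter of at least 10 CPM in 4 libraries the log2 fold change turned to 0.00 for Pdgfa. Without both the library labelled D and transgenic heart A the log2 fold change turned to 0.08 for Cdh5, 0.03 for Kdr, 0.08 for Tie1, 0.13 for Egfl7, -0.24 for Myh11, -0.14 for Cnn1, -0.09 for Dpt, 0.28 for Vegfa, 0.10 for Pgf, 0.13 for Pdgfb and 0.04 for Il34. Without both non-transgenic hearts A and B the log2 fold change turned to -0.11 for Flt1, 0.06 for Tek, 0.02 for Cldn5, -0.15 for Vwf, -0.11 for Pdgfrb, 0.04 for Pdgfra, -0.01 for Gsn, 0.09 for Adgre1, 0.10 for Csf1r, 0.16 for Mrc1, 0.07 for C1qa, 0.05 for C1qb, 0.02 for C1qc, 0.18 for Lyz2, 0.07 for Angpt2, -0.09 for Pdgfa and 0.04 for Pdgfc. With the GC and length correction the log2 fold change turned to -0.01 for Myh11 and 0.00 for C1qb. Leaving out each heart in turn gave log2 fold changes that crossed 0, of -0.10 to 0.04 for Cdh5, -0.20 to 0.01 for Kdr, -0.03 to 0.17 for Flt1, -0.19 to 0.03 for Tek, -0.13 to 0.04 for Tie1, -0.11 to 0.05 for Egfl7, -0.16 to 0.27 for Vwf, -0.03 to 0.29 for Pdgfrb, -0.13 to 0.39 for Myh11, -0.24 to 0.03 for Pdgfra, -0.15 to 0.20 for Dpt, -0.20 to 0.01 for C1qa, -0.15 to 0.04 for C1qb, -0.23 to 0.05 for Cd14, -0.01 to 0.15 for Cx3cr1, -0.27 to 0.10 for Vegfa, -0.17 to 0.05 for Pgf, -0.29 to 0.08 for Angpt2, -0.08 to 0.04 for Pdgfa, -0.13 to 0.11 for Pdgfb and -0.67 to 0.07 for Pdgfc.

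Whether letters shared by the titles pair the hearts is not given in the labels, and the correlations did not establish it: deviations of same-lettered hearts correlated at 0.30 (A), -0.08 (B) and 0.36 (E), and 1 of the 3 non-transgenic hearts correlated best with its own letter. With the replicate block on letters, 0 markers passed the edgeR test and genes past the threshold numbered 124 of all tested, against 165 without it. Letters C and D each occur in a single group, so under the block those hearts add nothing to the fold changes. The blocked comparison therefore rests on letters A, B and E, and the change in count is not an effect of the block alone. Under the block the log2 fold change was 0.07 for Tie1, 0.06 for Egfl7 and 0.00 for Tcf21, and with the GC and length correction as well it was 0.08 for Egfl7, -0.10 for Myh11, 0.06 for Tcf21 and 0.02 for C1qb.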

Other observations

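Markers of other cells that a heart sample could hold gave 0 genes past the edgeR threshold in 11 lists. At an unadjusted p under 0.05 there were 13 genes, while 10.7% of all genes had such a p. They were Hapln1, Kcna1, all 4 erythroid genes and 7 of the 10 cardiomyocyte genes. The 10 cardiomyocyte genes all had negative log2 fold changes, with a median of -0.31, and summed to 73157 to 83670 CPM in non-transgenic and 58784 to 63608 CPM in transgenic hearts. Pln, the inhibitor of the calcium pump, had the smallest p of them (log2 fold change -0.57, edgeR adjusted p = 0.118), followed by the troponin gene Tnnt2 (-0.39, adjusted p = 0.143). The 4 erythroid genes had a median of -0.67 and summed to 356 to 803 CPM in non-transgenic and 299 to 416 CPM in transgenic hearts, with Hba-a1 at -0.67 (edgeR adjusted p = 0.22), whose reads cannot be told apart with certainty from its near-identical copy, and Hbb-bs at -0.67 (0.296).

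Lymphatic endothelial genes (6 of 6 tested) had a median of -0.05 and summed to 154 to 165 CPM in non-transgenic and 142 to 162 CPM in transgenic hearts. Most of this sum came from Prox1, with means of 96.7 CPM in non-transgenic and 93.6 CPM in transgenic hearts. No other gene of the list had a group mean above that of Flt4 in transgenic hearts, 16.8 CPM. The epicardial genes (5 of 5 tested) summed to 115 CPM in transgenic heart A against 23.0 to 79.9 CPM in the other 7 hearts, and the endocardial genes (4 of 4 tested) to 171 CPM in that heart against 80.6 to 107 CPM. Within the endocardial list Hapln1, a matrix linker protein, stood at 0.159, 0.0768, 0.0362 and 0.457 CPM in the non-transgenic hearts and 4.56, 2.44, 0.203 and 0.0405 CPM in the transgenic hearts (log2 fold change 3.25, SE 1.19, edgeR adjusted p = 0.347). Schwann cell genes (4 of 6 tested) summed to 12.3 to 23.2 CPM, adipocyte genes (5 of 6) to 0.818 to 33.1 CPM, neutrophil and mast cell genes (4 of 6) to 7.19 to 12.1 CPM and T cell genes (2 of 6) to 1.02 to 3.46 CPM over the 8 hearts. Of the B cell list 0 of 4 genes were tested. The atrial list (4 of 5 tested) had a median log2 fold change of 2.53 with no member past the edgeR threshold (smallest adjusted p 0.673), and its high values were in transgenic heart A, the library labelled D and transgenic heart B.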
